A study of Mus musculus with 4 samples.

Results

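The Wnt ligands, their Frizzled receptors and coreceptors, and the genes that carry or report their signal were followed in airway smooth muscle sorted from mouse lung. Members were all probe sets whose gene symbol starts with Wnt or Fzd and a digit, plus 18 named genes of the pathway. This gave 47 of 23185 named probe sets. They comprise 19 Wnt ligands, 11 Fzd symbols, 4 coreceptors, 6 R-spondin and Lgr genes, 4 nuclear genes and 3 feedback targets. Of the Fzd symbols, 10 are protein-coding receptors, and Fzd10os, named as a transcript opposite to Fzd10, is a long noncoding RNA and no receptor. Of the 18 named genes, 1 (Tcf7) was not analysed here.

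All cells came from adult mice of genotype Acta2-hrGFP;Cspg4-DsRED, in which the actin promoter of smooth muscle drives a green reporter and the promoter of Cspg4, a gene of pericytes and vascular smooth muscle, a red one. Green cells without red were collected. VAS mice ate a diet sufficient in vitamin A (15 IU per gram). The VAD group ate a diet deficient in it (below 0.1 IU per gram), which the labels say in one place lasted 3 days and in another 5 days. CTR mice had a powdered, sufficient diet with corn oil for 3 days. BMS mice had such a powder for 3 days with 5 mcg per gram of BMS, a compound that blocks every retinoic acid receptor. Each group was 1 expression array made from the pooled RNA of 3 mice. No group therefore has replicates, and "higher" and "lower" compare arrays. The comparisons ask how retinoic acid supply (VAD against VAS) and retinoic acid receptor signalling (BMS against CTR) bear on airway smooth muscle transcripts. Strain and sex of the mice are not given in the sources used here.

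Wnt proteins are secreted, lipid-modified ligands. In the beta-catenin branch they bring together a Frizzled receptor and the coreceptor Lrp5 or Lrp6, which stops the breakdown of beta-catenin (Ctnnb1), and beta-catenin then works with Tcf/Lef factors on target genes such as Axin2. In other branches, Wnt5a and Wnt11 act largely through Ror receptors and Frizzled on cell shape and polarity without beta-catenin. R-spondins, bound by Lgr4, Lgr5 and Lgr6, keep Frizzled receptors on the cell surface. In the lung, Wnt2 and Wnt2b help to specify the organ, and Lgr6 marks smooth muscle around the airways.

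Promoter sequence is shown for Fzd4, the member with the largest difference under the antagonist, for Wnt11, a ligand whose window holds a Tcf/Lef motif, and for Axin2, the classical target of the beta-catenin branch. Sequences are from RefSeq, build GRCm38.p6, which had a start-site window for 33 of the 47 members. Each run gives the 250 bases before the start site on the + strand, at chr7:89404116-89404365 for Fzd4, chr7:98834862-98835111 for Wnt11 and chr11:108920099-108920348 for Axin2. For Wnt11, which has 2 windows, the one with the match is shown. Capitals mark a match, and the runs read 5′ to 3′:
Fzd4: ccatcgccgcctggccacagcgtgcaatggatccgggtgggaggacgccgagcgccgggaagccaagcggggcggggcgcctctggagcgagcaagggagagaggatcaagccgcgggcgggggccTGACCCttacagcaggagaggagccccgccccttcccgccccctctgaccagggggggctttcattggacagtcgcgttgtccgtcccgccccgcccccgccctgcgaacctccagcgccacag
Wnt11: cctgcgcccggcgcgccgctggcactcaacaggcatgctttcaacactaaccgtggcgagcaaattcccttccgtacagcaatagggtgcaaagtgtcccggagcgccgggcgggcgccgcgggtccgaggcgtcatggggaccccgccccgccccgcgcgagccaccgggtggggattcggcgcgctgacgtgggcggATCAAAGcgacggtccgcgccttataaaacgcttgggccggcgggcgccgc
Axin2: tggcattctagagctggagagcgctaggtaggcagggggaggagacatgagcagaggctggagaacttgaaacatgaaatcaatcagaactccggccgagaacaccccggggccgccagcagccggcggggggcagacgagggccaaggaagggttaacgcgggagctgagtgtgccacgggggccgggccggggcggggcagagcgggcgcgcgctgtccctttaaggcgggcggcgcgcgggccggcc

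The capitals in Fzd4, from base 127 of the window, are the hexamer GGGTCA read on the opposite strand. The searched hexamer, AGGTCA or its variant GGGTCA, is the kind that retinoic acid receptors bind in pairs. In Wnt11 the capitals, from base 200, are the Tcf/Lef motif CTTTGAT on the opposite strand. The Tcf/Lef motif searched was CTTTG followed by AA, by AT, by TA or by TT. Both strands were searched, and no matches overlapped in the windows shown. In windows of 300 bases, reaching 50 bases past the start, 6 of 41 member windows held a Tcf/Lef motif, beside 16.9% of all 32851 windows. A hexamer stood in 8 of the 41, beside 27.5% of all windows. The Axin2 window held neither. These matches describe letters, not binding.

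Across the arrays, Pearson correlations over named genes ran from 0.987 to 0.992, and array medians from 5.97 to 6.02 on the log2 scale of the deposited values. Smooth muscle markers were present as the label says. All 9 on the list, Acta2 and Myh11 among them, passed the filter on low values, with list means of 11.00, 11.23, 10.97 and 10.81 in VAS, VAD, CTR and BMS. Fibroblast markers also passed, 13 of 13, with list means of 9.98, 10.00, 9.55 and 10.27. Genes that mark fibroblasts were thus well measured in these pools. Fewer cells of a type and less RNA per cell cannot be told apart in such pools. The filter asked that the highest of the 4 values reach 6.05, the median of all named values. It passed 12395 named genes and 33 of the 47 members.

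No member past the filter was 2-fold apart in either experiment or between the control arrays. Among all genes past the filter, 0.653% were 2-fold apart between VAD and VAS, 1.36% between BMS and CTR, and 2.03% between CTR and VAS. With shares this low, a count of 0 among 33 members does not set them apart from other genes. At 1.5-fold (0.58 on the log2 scale), 1 member, Lgr5, was higher in VAD than in VAS, beside 1.45% of all genes, and 1, Fzd10os, was lower, beside 2.11%. In BMS against CTR, 1 member, Fzd4, was higher, beside 3.11% of all genes, and 0 were lower, beside 1.89%. Between the controls, Lgr5 and Wnt5a were higher in CTR than in VAS, 2 members beside 2.66% of all genes, and Fzd4, Rspo3 and Wnt2b lower, 3 members beside 5.87%.

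Median log2 differences of the 33 members were 0.03 in VAD minus VAS, 0.01 in BMS minus CTR and 0.03 in CTR minus VAS. Over all genes past the filter they were 0.01, 0.01 and 0.00. The distance from the lowest to the highest of a gene's 4 values had a median of 0.32 in the members and 0.35 in all genes. Of the 33 members, 28 lay above the filter on every array. The other 5 (Fzd3, Fzd9, Lef1, Wnt10a and Wnt2b) passed on some arrays only, so their differences are tied to passing.

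**Figure D1:**
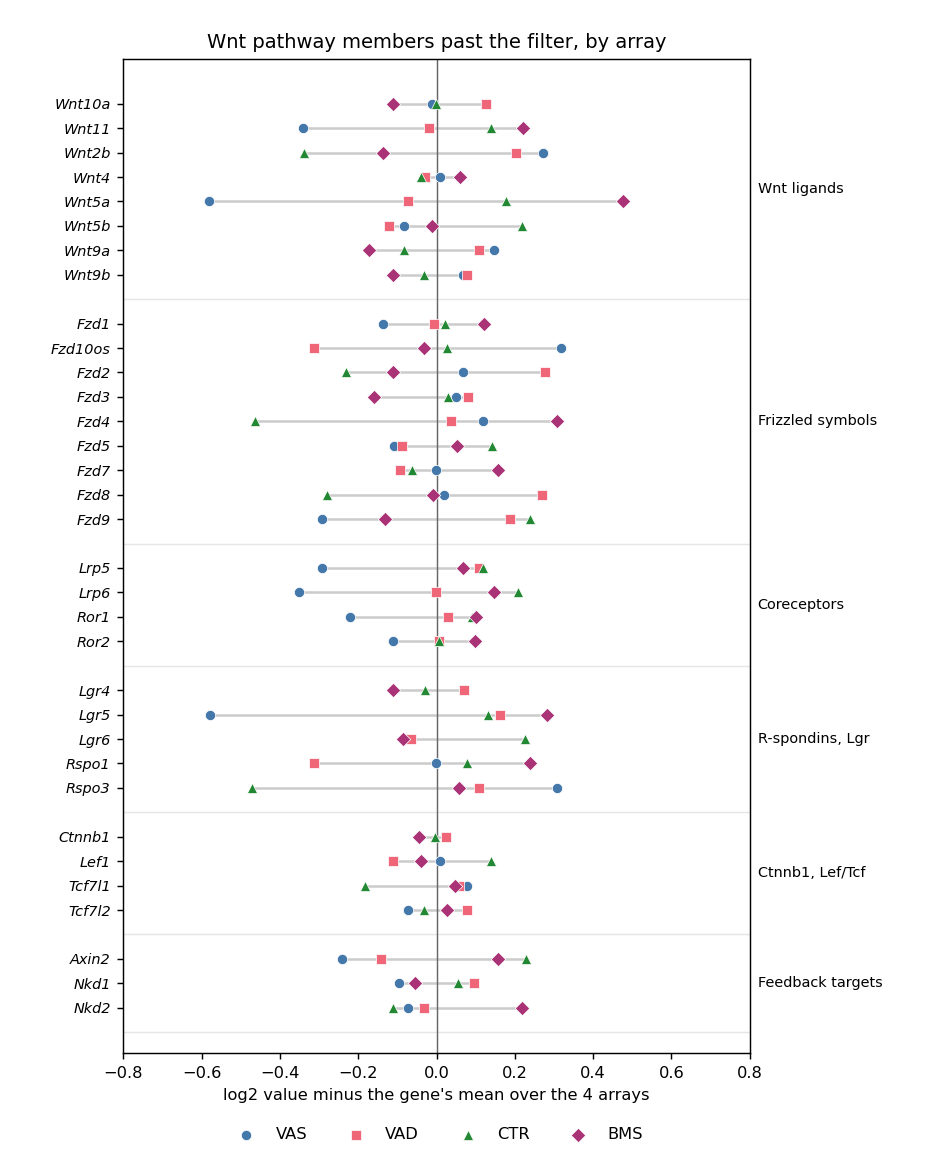
The plot gives, for each of the 33 members past the filter, the log2 value on each array minus the gene's mean over the 4 arrays, grouped by role, with a grey line from lowest to highest. Most members lie within a narrow band, Wnt5a has the widest span (1.06), Ctnnb1 the narrowest (0.07), and VAS (circles) is the lowest array for all 4 coreceptors.

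Of the 19 ligands, 8 passed the filter. Wnt5a, the main ligand of the Ror branch, stood at 7.55 in VAS, 8.06 in VAD, 8.31 in CTR and 8.61 in BMS (Entrez gene 22418). Its value was higher in the treated array of each experiment, by 0.52 in VAD minus VAS and 0.30 in BMS minus CTR. The control arrays differed by more, 0.77, and VAD lay below CTR. BMS stood 1.06 above VAS, which joins the antagonist to the other experiment's control. No other member had as wide a span over the 4 arrays, and 95.9% of all genes past the filter had a narrower one.

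Wnt11, a ligand of the polarity branch, stood at 7.01, 7.33, 7.49 and 7.57 in VAS, VAD, CTR and BMS. VAS was the lowest array, and CTR and BMS differed by 0.08. Wnt2b went the other way, with 6.45 and 6.38 in the diet experiment and 5.84 and 6.04 in the antagonist experiment. The step in Wnt2b therefore lay between the experiments, with differences within them of -0.07 and 0.20. Its CTR and BMS values lay under the filter of 6.05, so the step is tied to passing. Wnt5b, a close relative of Wnt5a, stood at 6.27, 6.23, 6.57 and 6.34, highest in CTR. Wnt4, Wnt9a, Wnt9b and Wnt10a differed by no more than 0.14 within either experiment. Wnt4 was the flattest of the ligands, at 6.24, 6.20, 6.19 and 6.29.

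The other 11 ligands lay below the filter on all 4 arrays. They were Wnt1, Wnt2, Wnt3, Wnt3a, Wnt6, Wnt7a, Wnt7b, Wnt8a, Wnt8b, Wnt10b and Wnt16, with values from 3.50 to 5.98. Wnt7b is a ligand of lung epithelium, and Wnt3a a ligand widely used to switch on beta-catenin signalling in culture. The deposited values carry no detection calls, so a value under the filter does not show that a transcript was absent.

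Among the receptors, Fzd4 had the largest difference under the antagonist. Fzd4, which serves Wnt ligands and also norrin in blood vessels (Entrez gene 14366), stood at 7.75 in VAS, 7.67 in VAD, 7.17 in CTR and 7.94 in BMS. The BMS value was 0.77 above CTR on the log2 scale, or 1.71-fold, but 0.19 above VAS. CTR was the low array, 0.59 under VAS, while VAD and VAS differed by -0.08. Its partners Tspan12, a tetraspanin of the norrin receptor complex, and Lrp5 did not share that size of difference, with 0.27 and -0.05 in BMS minus CTR. Tspan12 stood at 7.38, 7.07, 6.98 and 7.25, so its CTR value was also the lowest. Ndp, the gene of norrin, was lowest in CTR too, at 5.75, 5.60, 5.27 and 5.73, all below the filter.

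Fzd8 and Fzd2 were highest in VAD and lowest in CTR. Fzd8 stood at 7.79, 8.04, 7.49 and 7.76, which is 0.25 in VAD minus VAS and 0.27 in BMS minus CTR. Fzd2 stood at 6.77, 6.98, 6.47 and 6.59, with 0.21 and 0.12. Both were thus a little higher in the treated array of each experiment, with a difference between the controls of -0.30. Fzd1, at 8.38, 8.51, 8.54 and 8.64, was also a little higher in each treated array.

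The experiments went opposite ways for Fzd9, at 5.98 in VAS, 6.46 in VAD, 6.51 in CTR and 6.14 in BMS. VAD and CTR were alike, as were VAS and BMS. The VAS value lay under the filter of 6.05, so the differences of Fzd9 are tied to passing. Fzd7 stood at 7.06, 6.97, 7.00 and 7.22, Fzd5 at 6.37, 6.39, 6.62 and 6.53, and Fzd3 at 6.05, 6.08, 6.03 and 5.84. None of these 3 receptors differed by over 0.21 within an experiment. Fzd6 and Fzd10 lay below the filter on every array. The noncoding Fzd10os stood at 7.00, 6.37, 6.71 and 6.65, with VAS highest and VAD lowest and a VAD minus VAS value of -0.63. Against CTR the value for VAD was -0.34.

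All 4 coreceptors were lowest in VAS. Lrp6 (Entrez gene 16974) stood at 9.12 in VAS, 9.47 in VAD, 9.68 in CTR and 9.62 in BMS. Lrp5 (Entrez gene 16973) stood at 9.26, 9.66, 9.67 and 9.62. In VAD minus VAS they differed by 0.35 and 0.40, in CTR minus VAS by 0.57 and 0.40, and in BMS minus CTR by -0.06 and -0.05. The VAD values therefore separated from VAS in the same direction as those of CTR, the corn oil control of the other experiment. Ror1, a receptor kinase for Wnt5a, stood at 8.70, 8.95, 9.01 and 9.02, and its relative Ror2 at 8.25, 8.37, 8.37 and 8.46. Both had the same order, with the gap from VAS to the nearest array at 0.25 and 0.12.

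**Figure D2:**
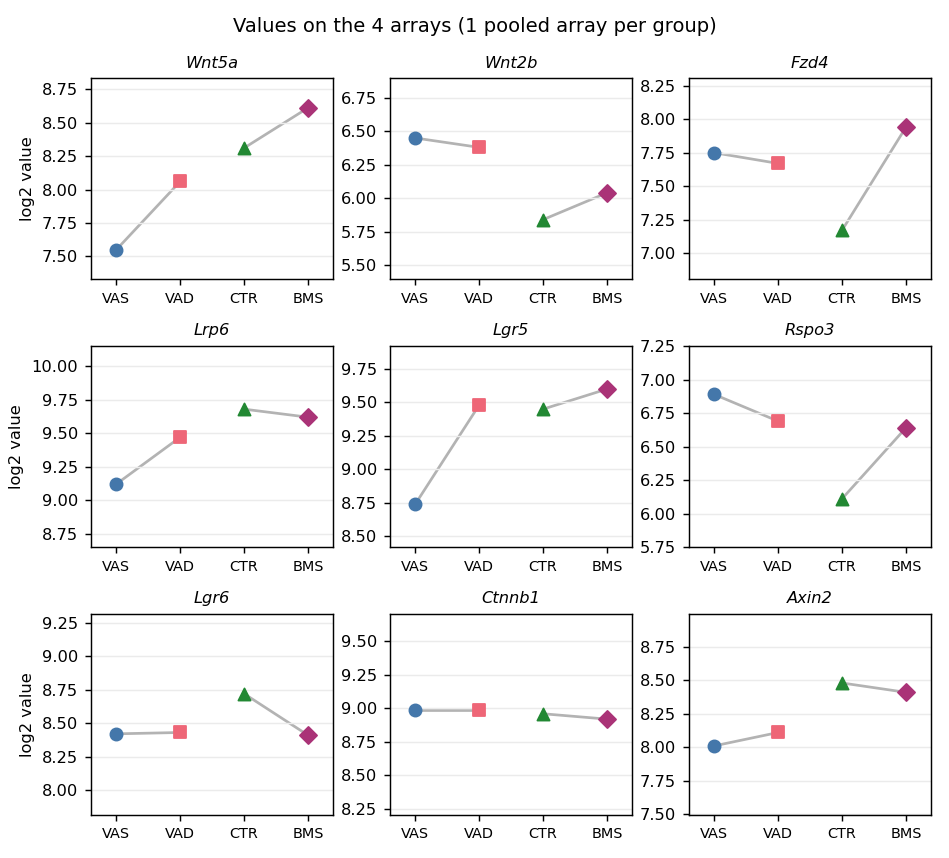
Each panel gives a member's log2 value (vertical axis) on the 4 arrays, with a line joining the arrays of 1 experiment, and every panel spans 1.5 log2 units. Lgr5 and Lrp6 are low in VAS alone, and Fzd4 and Rspo3 are low in CTR. Wnt2b steps down between the experiments, to values under the filter, and Ctnnb1 is level.

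Lgr5, a receptor for R-spondins best known from intestinal stem cells (Entrez gene 14160), had the largest difference of any member in the diet experiment. It stood at 8.74 in VAS, 9.48 in VAD, 9.45 in CTR and 9.60 in BMS. VAD was 0.74 above VAS (1.67-fold) but 0.03 above CTR, and BMS was 0.15 above CTR. The 3 other arrays lay within 0.15 of each other, and VAS stood alone below them. Lgr6, the airway smooth muscle receptor (Entrez gene 329252), stood at 8.42, 8.43, 8.72 and 8.41. Its CTR value was the highest, and the other 3 arrays lay within 0.02. Lgr4 stood at 6.36, 6.36, 6.26 and 6.18.

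Of the secreted partners of these receptors, Rspo3 was, like Fzd4, lowest in CTR. It stood at 6.89 in VAS, 6.69 in VAD, 6.11 in CTR and 6.64 in BMS (Entrez gene 72780). CTR was 0.78 under VAS, and BMS was 0.53 above CTR but -0.25 against VAS. Rspo1 stood at 6.86, 6.55, 6.94 and 7.10, lowest in VAD. Rspo2 lay below the filter on every array.

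Fibroblast markers, like Fzd4 and Rspo3, had their lowest list mean in CTR and a higher one in BMS. All 13 were higher in BMS than in CTR, beside 6372 of all 12395 genes past the filter. Of the 13, 5 were 1.5-fold higher, beside 3.11% of all genes, and the median was 0.48. In CTR minus VAS the list was mixed, with a median of -0.08. There 5 of 13 were higher, 1 of them by 1.5-fold (Col3a1, at 9.93 in VAS and 10.57 in CTR), and 4 were 1.5-fold lower (Pi16, Clec3b, Cd34 and Scara5). Of these 4, Cd34 stood at 10.38, 10.22, 9.01 and 10.72 and Clec3b at 9.21, 9.30, 7.72 and 9.23. The CTR value of Scara5, 5.09, lay under the filter. Endothelial markers had list means of 7.09, 7.11, 6.99 and 7.41, and 5 of the 6 past the filter were higher in BMS than in CTR. Of 9 smooth muscle markers, 0 were higher in BMS than in CTR, with a median of -0.16. All 9 were higher in VAD than in VAS, with a median of 0.22. The airway smooth muscle list, with 5 past the filter, had 0 higher in BMS than in CTR (median -0.22). The part of these cell types in the Fzd4 and Rspo3 values was not tested.

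Ctnnb1, which encodes beta-catenin (Entrez gene 12387), was level over the study, at 8.99 in VAS, 8.99 in VAD, 8.96 in CTR and 8.92 in BMS. Only 1.32% of all genes past the filter had a narrower span than its 0.07. An array reads transcripts, and beta-catenin is controlled mainly through its protein. Of the factors that work with it, Tcf7l2 stood at 8.18, 8.33, 8.22 and 8.28. Tcf7l1, which often represses targets, stood at 8.82, 8.80, 8.56 and 8.79, with CTR lowest by 0.23. Lef1 lay close to the filter, at 6.09, 5.97, 6.22 and 6.04, and differed by -0.12 and -0.18 within the experiments.

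The 3 feedback targets differed by at most 0.33 between the treated and the control array of an experiment. Axin2, a scaffold of the beta-catenin destruction complex that the pathway itself induces (Entrez gene 12006), stood at 8.01 in VAS, 8.11 in VAD, 8.48 in CTR and 8.41 in BMS. VAD minus VAS was 0.10 and BMS minus CTR -0.07, while the 2 controls differed by 0.47. The split in Axin2 was between the experiments. Nkd1, an inhibitor of Dishevelled, stood at 8.72, 8.91, 8.87 and 8.76. Nkd2, its relative, stood at 8.93, 8.97, 8.89 and 9.22, with BMS 0.33 above CTR and 0.29 above VAS.

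An array was counted as standing apart for a gene when it lay at least 0.2 log2 beyond all 3 others. VAS was lowest in this way for 6 of the 33 members (Lgr5, Lrp5, Lrp6, Ror1, Wnt5a and Wnt11), beside 8.25% of all genes past the filter, and highest for 1 (Fzd10os), beside 7.81%. CTR was lowest for 4 (Fzd4, Fzd8, Rspo3 and Tcf7l1), beside 7.27%, and highest for 2 (Lgr6 and Wnt5b), beside 6% of genes. VAD was lowest for 2 (Fzd10os and Rspo1), beside 3.45%, and highest for 2 (Fzd2 and Fzd8), beside 3.95%. BMS was lowest for 0, beside 6.09%, and highest for 2 (Nkd2 and Wnt5a), beside 6.34%. VAS or CTR was the array apart in 13 of these 19 cases (68.4%) and in 59.7% of such cases over all genes, so this pooled share lies near the background. Single counts ran from 18.2% of members (VAS lowest, beside 8.25% of genes) to 0% (BMS lowest, beside 6.09%). These counts were made after the values were seen and carry no test.

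Marker lists of other cells also differed in level among the arrays. Of 5 alveolar epithelial markers past the filter, 1 was higher in VAD than in VAS and 1 was higher in CTR than in VAS, with medians of -0.59 and -0.79. Their list means, over all 8, were 7.06, 6.54, 6.22 and 6.46 in VAS, VAD, CTR and BMS. In CTR minus VAS, macrophage markers (4 past the filter) had a median of -0.44 and lymphocyte markers (2 past the filter) -0.57, while in VAD minus VAS these medians were 0.04 and 0.31. The 2 lymphocyte genes went opposite ways, Cd3e with 0.36 and Ptprc with -1.5 in CTR minus VAS. In VAD minus VAS they had 0.71 and -0.08. The macrophage list means were 6.62, 6.56, 6.15 and 6.11 and those of lymphocytes 6.35, 6.18, 5.90 and 5.84, lower in the antagonist experiment. Pericyte and vascular smooth muscle markers were higher than in VAS for 7 of 8 in VAD and 7 of 8 in CTR, with medians of 0.21 and 0.35 and list means of 9.41, 9.56, 9.81 and 9.70. Of all 12395 genes past the filter, 6376 were higher than in VAS in VAD and 6246 in CTR. The marker that was lower in VAD, Higd1b, differed by -0.71 there, more than 1.5-fold. Postn, lower in CTR, differed by -0.07. The part of these cells in the low VAS values of Lgr5, Lrp5, Lrp6, Ror1, Wnt5a and Wnt11 was not tested.

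**Figure D3:**
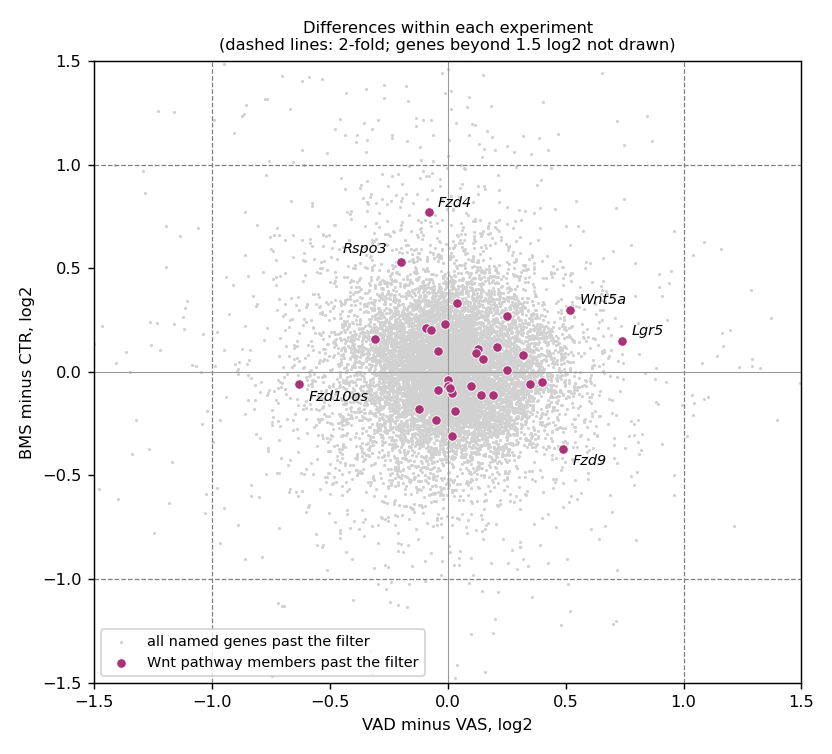
Each point is a gene past the filter, with VAD minus VAS on the horizontal and BMS minus CTR on the vertical axis, both in log2; members are in colour and dashed lines mark 2-fold. All 33 members lie inside the dashed lines, Lgr5 reaches 0.74 horizontally and Fzd4 0.77 vertically, and Wnt5a is positive on both axes (0.52 and 0.30).

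The only test with more than 1 array a side took VAD and BMS together against VAS and CTR, with the experiment as a block (limma on all 12395 genes past the filter). No member had an adjusted p under 0.05, and neither did any other gene, so 0% were called. At an unadjusted p under 0.05 limma had 1 member, Wnt5a, beside 3.84% of all genes (476). For Wnt5a the mean difference was 0.41 ± 0.14 (moderated SE of limma, 2 arrays a side). Its value was higher in 2 of 2 experiments, with an adjusted p of 1 in limma. For Lgr5 the mean difference was 0.45 ± 0.19, for Fzd4 0.35 ± 0.23, for Fzd8 0.26 ± 0.13 and for Axin2 0.01 ± 0.14. A moderated SE borrows from the spread of all genes, so it is not the spread of the gene's own arrays alone. The fit has 1 residual degree of freedom, and a p above the threshold does not show that the values were equal.

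The rest of the pathway was read from lists of other Wnt genes. Of all genes past the filter, 1.45% were 1.5-fold higher and 2.11% lower in VAD against VAS. In BMS against CTR these shares were 3.11% and 1.89%, and in CTR against VAS 2.66% and 5.87%. With shares this low, counts of 0 in short lists do not set them apart from other genes. Of 19 Dishevelled and destruction complex genes, all past the filter, 0 were 1.5-fold apart in either experiment, and Dvl1, a Dishevelled gene, was 0.70 higher in CTR than in VAS. Of 11 nuclear cofactors, 0 were 1.5-fold apart in any of the 3 comparisons. The planar polarity list, with 8 past the filter, also had 0 in either experiment, and Invs, a polarity and cilium gene, was 0.68 higher in CTR than in VAS. Porcn and Wls, which lipidate and export Wnt proteins, differed by 0.15 and 0.30 in BMS minus CTR and by -0.20 and -0.22 in VAD minus VAS.

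At the cell surface, Musk, a receptor kinase of the muscle synapse with a Frizzled-like domain, stood at 5.92, 6.11, 5.85 and 7.36, so BMS was 1.52 above CTR. Its VAS and CTR values lay under the filter of 6.05, so its difference is tied to passing. Musk was the 1 of 15 other surface genes past the filter that was 1.5-fold apart in either experiment. Beside it, 3.11% of all genes were 1.5-fold higher in BMS. Between the controls, the proteoglycan gene Gpc3 was 1.5-fold lower in CTR (-1.27) and Lrp4, a relative of Lrp5 and Lrp6, higher (0.94). Of 17 other reported targets, 0 were 1.5-fold higher in VAD and 1 was lower, beside 1.45% and 2.11% of all genes, while 3 were 1.5-fold higher in BMS and 0 lower, beside 3.11% and 1.89%. These were Twist1, a mesenchymal transcription factor, with -0.61 in VAD minus VAS and 1.00 in BMS minus CTR, Nrcam with 0.80 in BMS minus CTR and Sox9 with 0.72. CTR minus VAS was -1.14, -0.70 and -0.71 for these 3.

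Secreted antagonists of Wnt proteins were the list with the wide differences. Of 9 past the filter, 4 were 1.5-fold higher in BMS than in CTR, 3 of them over 2-fold, and 1 was over 2-fold lower, beside the 3.11% of all genes that were 1.5-fold higher and the 1.36% that were 2-fold apart. Frzb, which binds Wnt proteins outside the cell, stood at 6.72, 5.78, 5.01 and 7.92, and Dkk2, which binds Lrp5 and Lrp6, at 6.86, 6.06, 6.61 and 8.98. The VAD and CTR values of Frzb lay under the filter of 6.05. Sfrp4 stood at 7.92, 7.44, 7.28 and 10.16. Dkk2, Sfrp4 and Frzb were also over 2-fold higher in BMS than in VAS, by 2.12, 2.24 and 1.2. In BMS, Igfbp4 was 0.68 above CTR but 0.34 above VAS. Wif1, the gene over 2-fold lower, was at -1.89 against CTR but 0.42 against VAS. Between the controls, 1 of the 9, Wif1 (2.31), was 1.5-fold higher in CTR, beside 2.66% of all genes. There Frzb (-1.71) and Sfrp4 (-0.63) were lower, beside 5.87%. In the diet experiment 3 of the 9 were 1.5-fold lower in VAD and 0 higher, beside 2.11% and 1.45% of all genes. They were Frzb (-0.94), Dkk2 (-0.80) and Wif1 (-0.73). Frzb, Dkk2 and Sfrp4 (-0.48) were thus lower in VAD than in VAS but higher in BMS than in CTR. Fibroblast markers were higher in BMS than in CTR (13 of 13, median 0.48), while 0 of 9 smooth muscle markers were. Against VAS, the fibroblast markers in BMS ran from -0.92 (Pi16) to 0.93 (Col3a1). The part of these cell types in the antagonist and target values was not tested. The difference between this list and the members was not tested, since each group is 1 array.

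**Figure D4:**
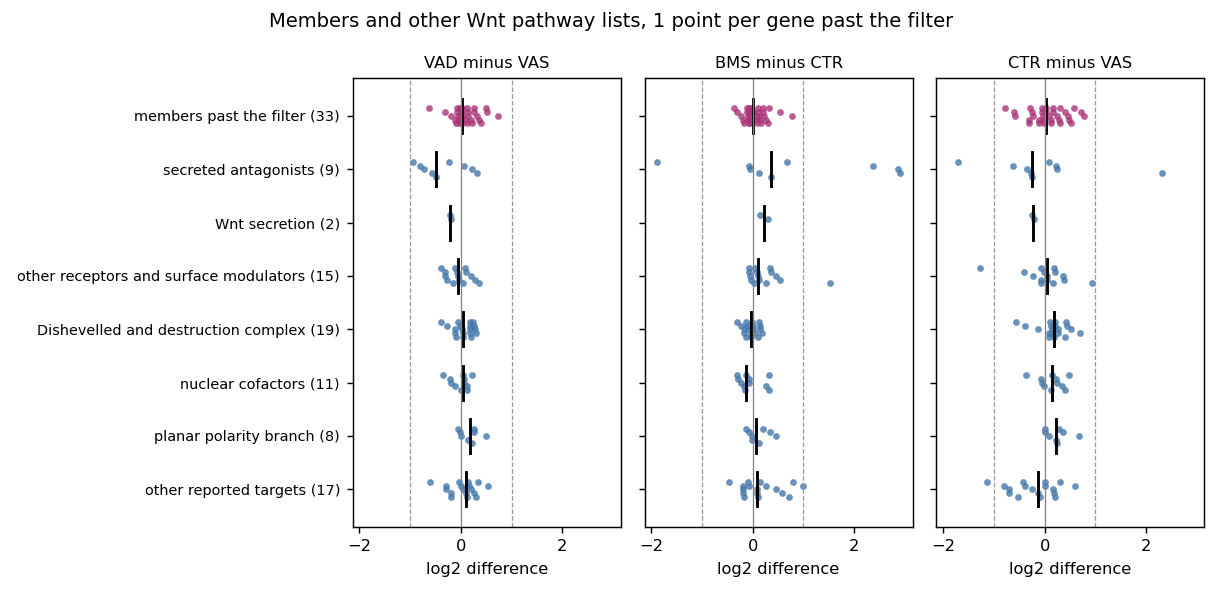
Each point is a gene past the filter, by list (rows, with the number of genes) and comparison (panels), placed at its log2 difference; black bars are list medians and dashed lines mark 2-fold. The 33 members stay inside the dashed lines in all 3 panels, while secreted antagonists reach 2.91 in BMS minus CTR (Frzb) and 2.31 in CTR minus VAS (Wif1).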

How the data were processed

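RNA of sorted airway smooth muscle was measured on 4 arrays, 1 for each group, and groups were taken from the sample titles. The authors' RMA values, deposited in log2 units, came from affy 1.36.1 under R 2.15.1, as the submitters' processing notes list. RMA equalises the arrays' distributions, so a shift shared by most genes is not visible, and background detection is unknown. The number of arrays limits the precision. The table has 25206 probe sets with Entrez gene numbers as names, of which GEO's platform annotation gave 1 symbol to 23185 and several to 0, and 2021 are unnamed here. All 47 member symbols matched RefSeq by Entrez number.

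Differences of log2 values were counted at 2-fold and 1.5-fold. The joint fit used limma 3.58.1 (lmFit, eBayes, p-values adjusted by Benjamini-Hochberg over the 12395 genes past the filter) in R 4.3.3 and was tested on simulated data. Other steps used Python 3.11.15, numpy 2.4.6, pandas 2.3.3 and matplotlib 3.10.9. Alternatives were other filters, thresholds, controls, normalizations, limma settings and each array left out.

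Members and lists were chosen with earlier results of these data known. Named in full were members 1.5-fold apart in any comparison, the largest in each other role class, and Axin2, Ctnnb1, Lef1, Lgr6 and Wnt5a. Values of other members, and the pathway genes Tspan12, Ndp, Porcn and Wls, were added after they were seen. Marker lists for pericytes, epithelium, macrophages, lymphocytes, mesothelium and neural cells were also read. In BMS minus CTR their medians were -0.26 for pericytes and vascular smooth muscle, 0.03 for alveolar and -0.08 for airway epithelium, -0.03 for macrophages, -0.09 for lymphocytes, 0.02 for mesothelium and 0.47 for the 1 neural gene past the filter. The airway smooth muscle list, which holds Lgr6, had -0.22.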

Additional observations from a re-analysis of the deposited data

Results flagged for a closer look

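Fzd9, Wnt10b and Rspo2 went opposite ways in the 2 experiments, by at least 1.2-fold in each. The difference between the experiments was not tested, since each group is 1 array. For Fzd9, VAD minus VAS was 0.49 and BMS minus CTR was -0.37, which are 0.86 apart. Wnt10b and Rspo2 lay below the filter on every array. In Wnt10b the values were -0.48 and 0.40, a gap of -0.88, and in Rspo2 they were -0.39 and 0.28, a gap of -0.68. Among the 12395 genes past the filter, 551 (4.45%) went opposite ways by this measure. Of the 33 members past the filter, Fzd9 alone did, and Wnt10b and Rspo2 fall outside that comparison.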

How the results depend on the processing

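The count of members 2-fold apart was 0 in each comparison and stayed 0 with no filter and after quantile normalization or cyclic loess. Filters on the mean or at the 75th percentile (7.67) and the 3-fold threshold are stricter, so there the count could only be 0. At 1.5-fold it was 2 for VAD against VAS, 1 for BMS against CTR and 5 for CTR against VAS. With VAS in place of CTR as the control, 1 member (Wnt5a, 1.06) was 2-fold higher in BMS, and with the mean of both controls 0 were. The joint limma fit called 0 members and 0 genes under every alternative run on all 4 arrays. At an unadjusted p under 0.05 these limma runs had 0 to 1 members and 216 to 938 genes. Runs with 1 array left out had no experiment block and 1 array on a side, so their calls are not given. Against the other control, Lgr5 in VAD was 0.03, Fzd10os in VAD was -0.34 and Fzd4 in BMS 0.19. Against the mean of both controls, which still holds the first control, they were 0.39, -0.49 and 0.48. In CTR against VAS, Fzd4 (-0.57) and Wnt2b (-0.58) lay just under 1.5-fold after quantile normalization. The members' median difference moved to 0.14 in VAD against VAS and 0.16 in CTR against VAS at the 75th percentile filter, which left 16 members. The experiment block pairs each treated array with the control of its own experiment, and without it limma called 0 genes too.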
